A study of Drosophila melanogaster with 12 samples.

Results

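The response of the fly transcriptome to the mitoribosomal mutation tko25t was compared between males and females. For each gene the change in mutant males was set against the change in mutant females, so that the value reported is the male change (male tko25t minus male wild type) minus the female change (female tko25t minus female wild type), on the log2 scale and called here the difference between the sexes. All 12 arrays of the 12 in the series entered this comparison. There were 3 arrays of tko25t males, 3 of wild-type males, 3 of tko25t females and 3 of wild-type females, each hybridized with whole-fly RNA from its own group of 1-day-old flies, the females being virgin. Mutants and controls alike were the first-generation progeny of a Canton S mother and an Oregon R father, both parents of the mutants also carrying tko25t after back-crossing into their strain, and because tko lies on the X chromosome the mutant males were hemizygous and the mutant females homozygous. The allele is a point mutation in the coding sequence, so the tko probe set cannot check the labels.

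tko encodes protein S12 of the small subunit of the mitochondrial ribosome, which translates the few proteins specified by mitochondrial DNA, all of them parts of the respiratory chain and ATP synthase. The other ribosomal proteins, the tRNA synthetases, the chaperones and the import machinery that mitochondria need are nuclear gene products. Male and female flies differ in much of their transcriptome because the gonads hold a large share of the RNA of a whole fly. In RNA of whole flies, fewer cells of a type and less RNA per cell cannot be told apart.

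The values are the authors' array signals, to which 11.6 was added before log2 was taken. limma's test was run on 11547 probe sets, its p adjusted over all of them by the Benjamini-Hochberg method, and those with an adjusted p under 0.05 are referred to as called. Correlations between arrays of one group ran from 0.952 to 0.987. A few arrays held transcripts of the other sex. The summed signal of 20 eggshell and yolk protein genes was between 0.365% and 0.641% of the female level in mutant males, and 7.02%, 4.13% and 0.64% of it in wild-type males. The summed signal of 29 accessory gland protein genes reached 7.02% of the male level in 1 mutant female array, against 0.454% to 3.12% in the other female arrays, and that of 34 sperm protein genes reached 5.85% in the same array. Signals of 18S ribosomal RNA control probe sets also ran with genotype in males. With the middle probe set they were 193.5 to 356.7 in mutant males and 3895 to 4075 in wild-type males, but 94.7 to 189.6 in mutant females and 90.8 to 111.5 in wild-type females (difference between the sexes of -4.12, exact permutation test within each sex, two-sided p = 0.025). With the other 2 probe sets the differences were -3.41 and -3.40 (p = 0.1 and p = 0.07, exact permutation tests, where 400 arrangements allow no p below 0.005). Exchanging genotypes within each sex takes neither sex to change, so the p of this test is not one for the difference alone. The part of these features in the results below was not tested except where a value without the 3 arrays is given, by which are meant wild-type male replicates 1 and 2 and mutant female replicate 1, a selection made after their values were seen.

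**Figure D1:**
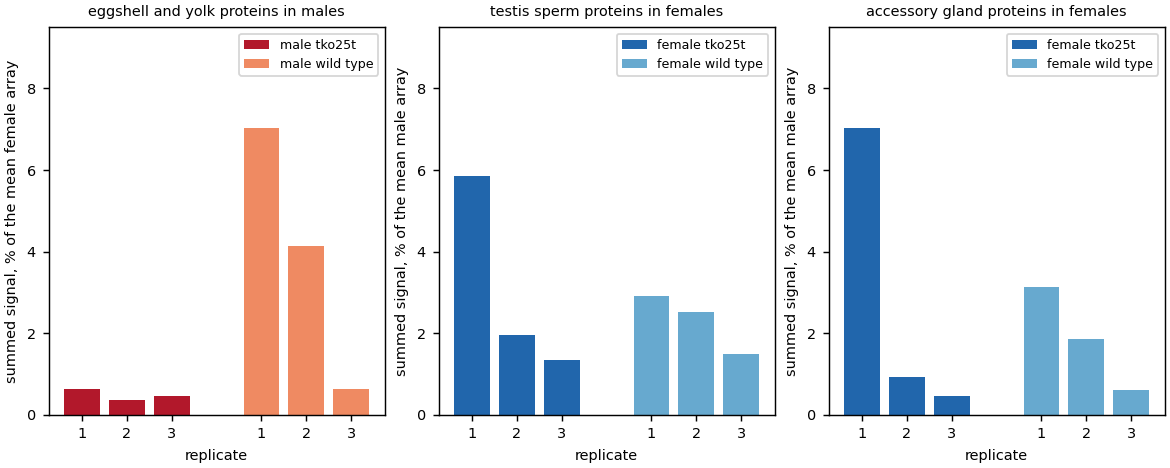
Summed signal of transcripts of the other sex on each array, as a percent of the mean array of the sex that makes them (vertical axis), by replicate and genotype. Wild-type male replicates 1 and 2 stand at 7.02% and 4.13% for eggshell and yolk proteins, and mutant female replicate 1 at 5.85% and 7.02% for sperm and accessory gland proteins.

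The difference between the sexes was called for 12 of the 11547 probe sets (0.104%), 8 (0.0693%) with the more positive change in males and 4 (0.0346%) with the more negative. At an unadjusted p under 0.05 there were 1478 (12.8%), of which 773 (6.69% of those tested) were positive and 705 (6.11%) negative. The median difference over all probe sets was 0.02, with quartiles of -0.23 and 0.23 and a median standard error of 0.25. The male changes of all 12 called probe sets passed the test within males in the same fit, and the female changes passed for 2 of them. Signals of mutant and wild-type males did not overlap for any of the 12, as for 31.9% of all probe sets. The same fit called 805 probe sets in males (6.97%), 522 up (4.52%) and 283 down (2.45%), and 306 in females (2.65%), 226 up (1.96%) and 80 down (0.693%). Of the 1478 probe sets at an unadjusted p under 0.05, 38.3% were higher in mutant males with a lower value in mutant females, and 36.3% the reverse, where 22.9% and 18.8% of all probe sets had these signs.

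**Figure D2:**
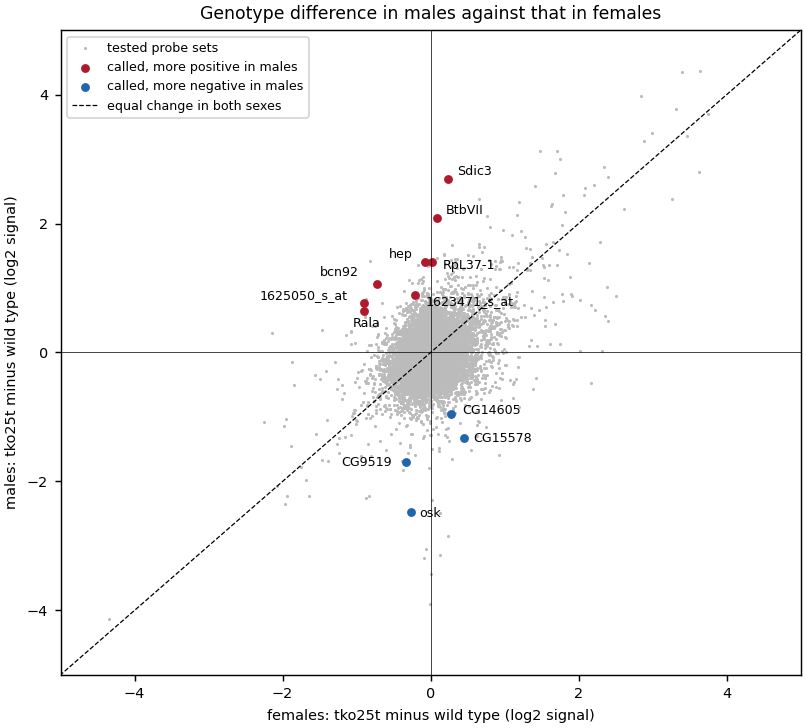
Change in mutant males (vertical axis, log2 signal) against change in mutant females (horizontal axis) for the 11547 probe sets tested, with the 12 called for a difference between the sexes in colour. On the dashed line both sexes change equally, and the 8 red points lie above it and the 4 blue points below it.

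Sdic3, RpL37-1, BtbVII and hep had a higher signal in mutant males and a female change that did not pass the test. The strongest call was a probe set for Sdic3, a copy of the sperm-specific dynein intermediate chain gene, which belongs to a tandem cluster of near-identical copies on the X chromosome, so that its signal is uncertain as to copy. Its signals were 352.0, 347.1 and 302.0 in mutant males, against 42.5, 40.7 and 42.1 in wild-type males. In females they were 44.5, 39.3 and 37.9 in mutants, and 36.9, 28.3 and 33.4 in wild-type flies. Mutant males alone stood high, and the difference between the sexes was 2.46 (standard error 0.19, adjusted p = 0.000153). The probe set of another copy, Sdic1, gave 168.9, 172.7 and 143.1 in mutant males and 225.5, 210.8 and 204.4 in wild-type males, with a difference of -0.23 (standard error 0.22, adjusted p = 0.709), so the copies were not measured alike.

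RpL37-1, a protein of the cytosolic large ribosomal subunit encoded on the X, gave 3428, 3252 and 3381 in mutant males, against 1316, 1275 and 1175 in wild-type males. Females had 4862, 5231 and 4150 in mutants and 4445, 4709 and 4834 in wild-type flies. Here the wild-type males were the low group and the mutant males came near to the female level, with a difference of 1.39 (standard error 0.14, adjusted p = 0.00181). Sdic3 and RpL37-1 were the 2 calls that held under all 21 alternatives tried.

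BtbVII, which encodes a BTB domain protein, had 57.0, 96.9 and 73.1 in mutant males and 11.9, 6.2 and 7.9 in wild-type males. In females it had 85.4, 89.2 and 100 in mutants and 90.8, 76.0 and 90.6 in wild-type flies, and the difference was 2.01 (standard error 0.26, adjusted p = 0.0108). Of the wild-type male signals 2 lie below the added constant, so the fold in males is bounded poorly, and a second probe set of the gene gave -0.13 (standard error 0.30, adjusted p = 0.894). The call for BtbVII was lost without mutant male replicate 3, without wild-type female replicate 1 and without the 3 arrays (adjusted p up to 0.0941). hep, the JNK kinase hemipterous, also had its lowest signals in wild-type males, with 31.6, 28.0 and 30.6 in mutant males and 6.9, 2.5 and 3.3 in wild-type males, against 59.9, 73.3 and 76.6 in mutant females and 81.0, 80.3 and 62.2 in wild-type females (difference 1.48 with a standard error of 0.24 and an adjusted p of 0.0491). Every wild-type male signal of hep lies below the added constant, and its mutant male signals stayed below every female signal. Its other probe sets gave 0.44 and -0.77 and were not called, so the probe sets of hep disagree in direction. The call for hep was lost under 15 of 20 alternatives, including the replicate block, 4 times the constant and omission of any single array but wild-type male replicate 1, with a difference between 0.65 and 2.34.

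In another set of calls mutant males were higher than wild-type males while mutant females were lower than wild-type females. Rala, a Ras-like GTPase of the exocyst pathway, had 347.8, 317.5 and 354.5 in mutant males, against 201.1, 207.5 and 228.6 in wild-type males. In females it had 354.7, 422.6 and 356.0 in mutants and 753.1, 819.5 and 588.2 in wild-type flies. The 2 sexes of mutants thus had signals in one range, while wild-type females stood far above wild-type males. The male change was 0.65 (adjusted p = 0.0117), the female change -0.90 (adjusted p = 0.00274), and the difference 1.55 (standard error 0.18, adjusted p = 0.00568). The name of this probe set comes from a supplementary table of the study, not from the array annotation used for the other genes.

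The probe set 1625050_s_at, not paired with a gene in the sources used here, gave 306.5, 346.8 and 316.8 in mutant males and 166.4, 176.3 and 212.4 in wild-type males, against 69.1, 60.2 and 48.2 in mutant females and 106.7, 139.9 and 113.0 in wild-type females. It rose in males by 0.77 (adjusted p = 0.0102) and fell by 0.90 in females (adjusted p = 0.00704), with a difference of 1.67 (standard error 0.21, adjusted p = 0.00929). Rala and 1625050_s_at were the 2 probe sets called in both sexes with opposite signs. Each lost its call under 1 alternative, without the 3 arrays (differences of 1.41 and 1.57, adjusted p = 0.106 and 0.0765), and over all 21 alternatives the differences ran from 1.41 to 1.69 for Rala and from 1.33 to 1.79 for 1625050_s_at.

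bcn92, an X-linked gene for a LYR-motif protein of iron-sulfur cluster assembly, had 275.4, 320.3 and 468.2 in mutant males and 158.3, 154.0 and 165.1 in wild-type males. In females it had 367.8, 302.0 and 256.6 in mutants and 539.5, 594.5 and 414.6 in wild-type flies. The groups did not overlap in either sex and the difference was 1.79 (standard error 0.27, adjusted p = 0.0434). The female change of -0.72 did not pass (adjusted p = 0.0754). The call for bcn92 was lost under 11 of 21 alternatives, among them the replicate block, no filter, omission of the 3 arrays and of any single array but mutant replicate 1 of either sex or wild-type replicate 3 of either sex, with the difference between 1.57 and 1.95 throughout. Around tko, the 100 nearest tested genes, 50 on each side in the order of the Release 6 annotation, had a median difference of 0.05, with bcn92 the 1 call among them and 12 positive and 7 negative at an unadjusted p under 0.05, which occurred in 7.44% and 7.04% of all tested X genes. Rala, which has no symbol in the array annotation, could not enter this count. The unnamed probe set 1623471_s_at, the last of the positive calls, gave 114.8, 89.7 and 120.4 in mutant males and 48.8, 48.1 and 60.7 in wild-type males, with 259.1 to 297.7 in mutant females and 323.7 to 331.0 in wild-type females (difference 1.11, standard error 0.18, adjusted p = 0.0491). Its call was lost under 13 of 21 alternatives, with a smaller constant, no filter, without the 3 arrays and without any single array but mutant male replicate 2 or wild-type male replicate 3 (difference 0.83 to 1.36).

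Among the 4 negative calls, 3 had their main signal in males. CG14605 had 276.1, 277.0 and 256.6 in mutant males and 544.4, 520.5 and 542.8 in wild-type males, while mutant females had 33.2 to 41.4 and wild-type females 22.4 to 37.3 (difference -1.24, standard error 0.20, adjusted p = 0.0491). CG9519, of the glucose-methanol-choline oxidoreductase family and named as Rala was, had 45.3, 51.3 and 57.5 in mutant males and 192.3, 174.4 and 212.4 in wild-type males, so that mutant males lay near the levels of mutant females (27.8 to 41.5) and wild-type females (40.1 to 51.9). Its difference was -1.37 (standard error 0.22, adjusted p = 0.0491). CG15578, an X-linked gene, had 145.5, 101.1 and 105.8 in mutant males and 301.8, 324.2 and 303.7 in wild-type males, with 1.3 to 11.2 in mutant females and 1.3 to 1.7 in wild-type females (difference -1.79, standard error 0.30, adjusted p = 0.0491). Every female signal of CG15578 lies below the added constant, so its female change is bounded poorly. These calls lay close to the threshold. That for CG14605 was lost under 14 of 21 alternatives (difference -1.36 to -1.03), with the replicate block, quantile normalization, a smaller constant, no filter and any single array omitted but mutant female replicate 2 or wild-type female replicates 2 and 3. That for CG9519 was lost under 14 of 20 (-1.56 to -1.09), with a smaller constant, no filter and any single array omitted but mutant female replicate 2. That for CG15578 was lost under 17 of 21 (-2.37 to -1.28), with the replicate block, quantile normalization, a smaller constant, either change of the filter and any single array omitted but mutant female replicate 3. All 3 were also lost without the 3 arrays.

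The remaining call was oskar (osk), which organizes the pole plasm of the oocyte and is a transcript of the female germ line. One of its 3 probe sets gave 6.6, 2.3 and 1.6 in mutant males, against 101.5, 82.2 and 41.7 in wild-type males, with 1731 to 2714 in mutant females and 2631 to 2694 in wild-type females (difference -2.20, standard error 0.34, adjusted p = 0.0491). Every mutant male signal lies below the added constant, so the fold in males is bounded poorly. The male values were highest on wild-type male replicates 1 and 2, the male arrays with most eggshell and yolk transcripts. Wild-type male replicate 3 and mutant male replicate 1 had like sums of those transcripts (0.64% and 0.641% of the female level) but 41.7 and 6.6 for osk. The part of such transcripts in the call was not tested. The call was lost under 14 of 21 alternatives, with 4 times the constant, no filter, quantile normalization, without the 3 arrays and without any single array other than mutant female replicate 1 or wild-type male replicate 3. Its difference ran from -3.33 to -0.99 over them. The other probe sets of osk gave -1.46 (adjusted p = 0.151) and -0.44 (adjusted p = 0.704).

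**Figure D3:**
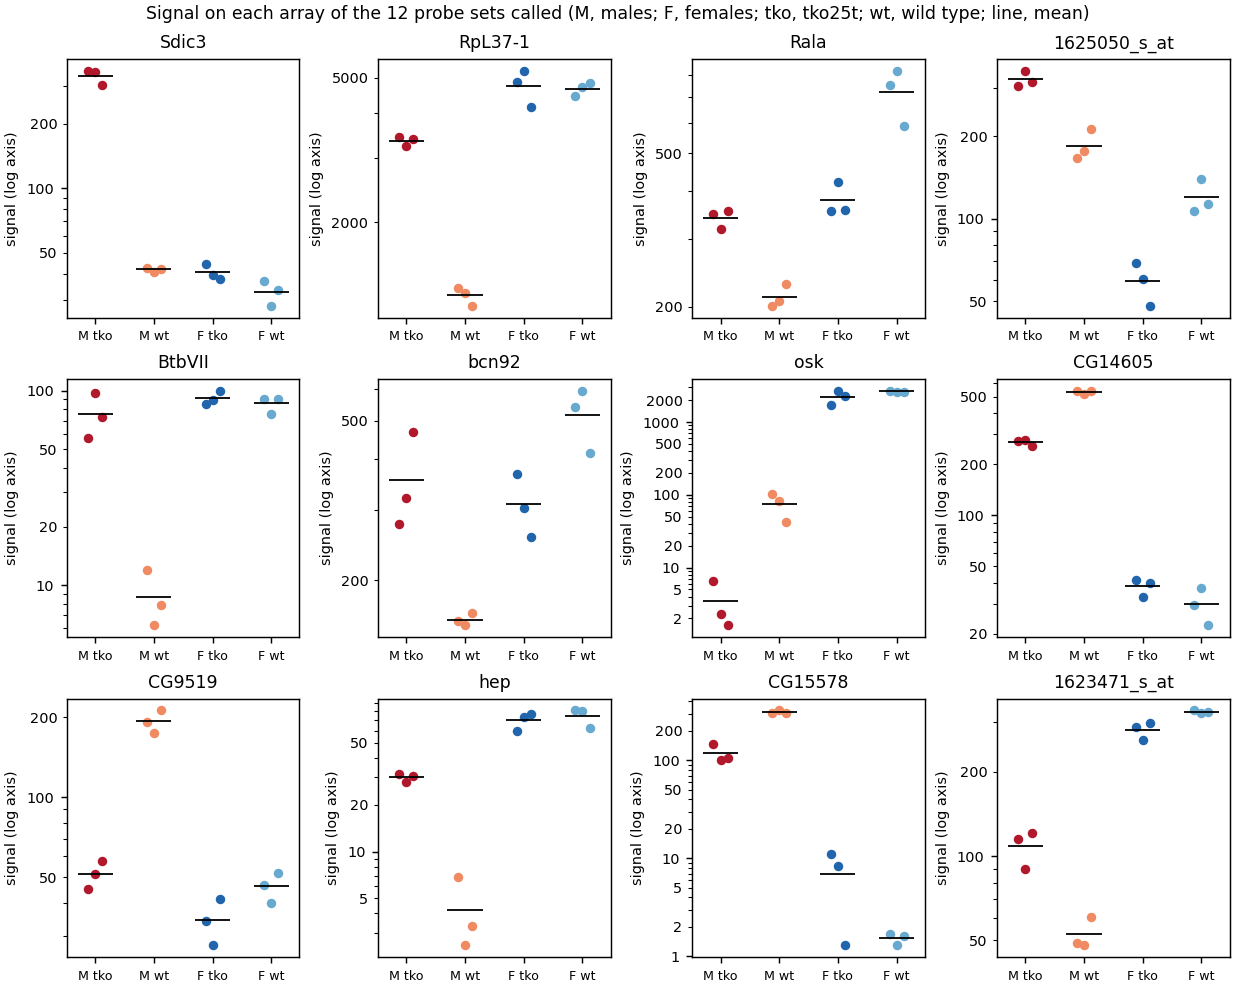
Signal on every array (points, log axis) and group mean (line) of the 12 probe sets called for a difference between the sexes, in order of their p. In Sdic3 the mutant males stand apart, in RpL37-1, BtbVII and hep the wild-type males are lowest, and in Rala, 1625050_s_at and bcn92 the genotypes differ in opposite directions in the 2 sexes.

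Of the 8 called probe sets with a gene and chromosome in the annotation, 5 lay on the X chromosome, 4 of them more positive in males, where 16.2% of the tested probe sets with a chromosome are X-linked. Rala has no chromosome in that annotation and is not counted, but the study gives it a cytological position on the X. Median differences per chromosome arm ran from -0.01 on 2L to 0.03 on X. At the edge of the threshold, Nop10, a small nucleolar RNA-protein particle component, had a difference of 0.93 (adjusted p = 0.0516) and CG11267, the mitochondrial Hsp10 co-chaperonin, one of 1.06 (adjusted p = 0.0576). The same adjusted p was given by Vav (1.72), alpha-Est10 (1.21), CG17239 (-1.81), CG6839 (-1.24) and a probe set without a gene name (-1.26). Another unnamed probe set had 1.38 (adjusted p = 0.056), and the last calls inside it had an adjusted p of 0.0491.

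Among brighter genes with an unadjusted p under 0.01, the largest differences beyond the calls did not pass adjustment, and they are given as values. On the positive side were Mal-B1, a maltase (2.45, adjusted p = 0.151), phu (1.82, adjusted p = 0.0891), the hairpin RNA gene hpRNA:CR32207 (1.45, adjusted p = 0.2), CG12116 (1.38, adjusted p = 0.117), Nmdmc, a mitochondrial enzyme of folate metabolism (1.33, adjusted p = 0.16), the tubulin cofactor Tbcd (1.32, adjusted p = 0.106) and the bromodomain gene Brd7-9 (1.29, adjusted p = 0.239). Mal-B1 had 193.0, 132.0 and 273.6 in mutant males and 229.3, 184.9 and 81.9 in wild-type males, but 228.6, 52.1 and 107.4 in mutant females, below 490.2, 560.8 and 537.9 in wild-type females. Its difference thus lay in the females, in which the change of -2.15 passed (adjusted p = 0.0207). Nmdmc had 399.6, 356.8 and 615.4 in mutant males and 224.2, 123.8 and 117.5 in wild-type males, and overlapping values in females (male change 1.51, adjusted p = 0.00413).

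On the negative side, 7 of the 10 largest differences were transcripts of the ovary or of yolk, namely Yp2 (-3.89), Yp1 (-3.45), Cp15 (-3.27), deadhead (dhd, -3.11), Cp19 (-2.99), Cp18 (-2.61) and Cp16 (-2.05), with adjusted p between 0.111 and 0.211, and the called osk was another. The others were CG18179, a predicted serine protease (-2.65, adjusted p = 0.138), and fit, a fat-body gene with female-biased expression (-2.50, adjusted p = 0.174). CG18179 had 448.3, 203.3 and 185.9 in mutant males and 190.1, 295.2 and 843.9 in wild-type males, against 330.3, 191.8 and 357.7 in mutant females and 51.2, 52.5 and 58.8 in wild-type females, and rose by 2.17 in females (adjusted p = 0.0246), with a male change of -0.48 (adjusted p = 0.565). fit had 83.8, 46.3 and 6.5 in mutant males and 85.6, 111.2 and 213.8 in wild-type males. Mutant females had 765.1, 920.6 and 957.1 and wild-type females 353.8, 404.9 and 667.3. The genotypes did not overlap in either sex, but in limma's test neither change passed. The male change was -1.58 (adjusted p = 0.073) and the female change 0.92 (adjusted p = 0.469). Male arrays did not overlap for 31.9% of all probe sets, and all mutant females lay above all wild-type females for 9.29% of all genes.

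Further genes that the study discusses were examined for the difference itself. The esterase gene alpha-Est10 had a female change of -1.56 (adjusted p = 0.000149) and a male change of -0.35 (adjusted p = 0.183), with a difference of 1.21 just outside the threshold (adjusted p = 0.0576). Gld, glucose dehydrogenase, had 276.5, 216.6 and 200.9 in mutant males and 547.2, 695.4 and 940.2 in wild-type males, with 27.1 to 34.8 in mutant females and 31.8 to 44.0 in wild-type females (difference -1.37, adjusted p = 0.0848). The amino acid transporter gene pathetic (path) fell in both sexes, by 1.03 in males and by 1.95 in females (difference 0.93, adjusted p = 0.136). For the lysozyme gene LysX, the sphingomyelinase gene CG15533 and the lipase gene sxe2 the differences were -1.91, -1.79 and -0.65 (adjusted p = 0.285, 0.179 and 0.446). In limma's fit LysX and CG15533 rose in females by 2.40 and 2.36 (adjusted p = 0.022 and 0.00398). Their male changes of 0.49 and 0.57 did not pass (adjusted p = 0.589 and 0.368). sxe2 had -0.67 in males and -0.02 in females (adjusted p = 0.116 and 0.987).

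The families gave a more regular picture than single genes. In each list a gene was represented by its brightest probe set, and over all 9484 genes tested 6.67% had a positive and 6.27% a negative difference at an unadjusted p under 0.05, with a median of 0.01. These counts carry no test of the list, since members of a family move together. Among the 20 lists described, mitochondrial ribosomal protein genes had the highest median. Of 71 such genes, 68 had a positive difference, 35 (49.3%) were positive at an unadjusted p under 0.05 and 0 negative, and the median was 0.38 with quartiles of 0.24 and 0.54. None of them passed adjustment singly. The median change was 0.32 in males and -0.08 in females. In the test within males 21 of the 71 rose and 0 fell (4.45% and 2.39% of all genes did so), and in females 0 changed at an adjusted p under 0.05 (2.04% of all genes rose and 0.675% fell). For 36 of the 71 genes all mutant males lay above all wild-type males, as for 14.3% of all genes, whereas for 15 of them all mutant females lay below all wild-type females, as for 9.43% of all genes.

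The highest of these genes was mRpS28, with 199.8, 210.0 and 186.4 in mutant males and 108.8, 83.4 and 121.0 in wild-type males. Its female values were 347.3, 340.8 and 365.8 in mutants and 390.8, 385.7 and 344.1 in wild-type flies, and its difference was 0.95 (standard error 0.18, adjusted p = 0.0683). bonsai, the mitochondrial ribosomal protein S15, had 233.8, 242.3 and 267.1 in mutant males and 166.0, 161.7 and 161.4 in wild-type males, with 354.1 to 383.1 in mutant females and 361.5 to 440.4 in wild-type females (difference 0.65, adjusted p = 0.109). For mRpL12, the stalk protein of the large subunit, mutant males had 271.4, 229.9 and 288.0 and wild-type males 170.9, 159.5 and 173.0, with 489.2 to 531.1 in mutant females and 502.0 to 532.9 in wild-type females (difference 0.64, adjusted p = 0.111). In these genes the female levels of both genotypes lay above the male levels, and the mutant males lay between wild-type males and females. At the other end of the list mRpL45 had -0.19 (adjusted p = 0.7).

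tko itself moved with its family. Its signals were 314.5, 257.4 and 357.6 in mutant males and 181.5, 239.6 and 227.1 in wild-type males, against 545.1, 465.6 and 466.7 in mutant females and 532.7, 491.9 and 529.4 in wild-type females. It rose in males by 0.49 (adjusted p = 0.0484) and had -0.07 in females (adjusted p = 0.88), and the difference of 0.57 had an adjusted p of 0.254. Large and small subunit proteins had medians of 0.39 over 44 genes and 0.37 over 27 genes. By array, the median deviation of the 71 genes from their mean over the 6 arrays of that sex was 0.16, 0.04 and 0.29 in mutant males and -0.23, -0.11 and -0.10 in wild-type males, and -0.00, -0.05 and -0.08 in mutant females and -0.01, 0.07 and 0.06 in wild-type females. The male genotypes did not overlap. The median difference was between 0.34 and 0.44 under all 22 alternatives, and 0.36 without the 3 arrays, where 18 of the 71 genes were positive and 0 negative at an unadjusted p under 0.05 (5.92% and 4.33% of all genes).

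**Figure D4:**
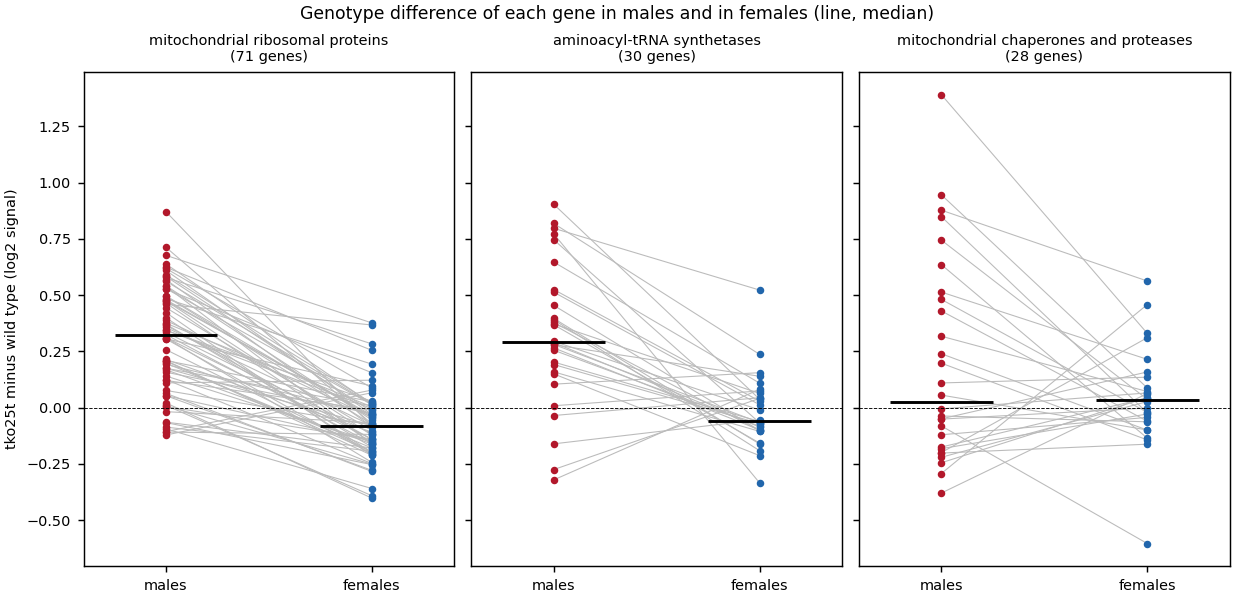
Change in mutants (vertical axis, log2 signal) in males and in females for each gene of 3 lists, lines joining the same gene and bars giving medians. Mitochondrial ribosomal protein genes have medians of 0.32 in males and -0.08 in females, and aminoacyl-tRNA synthetases 0.29 and -0.06, while those of the chaperone and protease list are 0.02 and 0.03 with 8 genes positive at an unadjusted p under 0.05.

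The aminoacyl-tRNA synthetases, which charge tRNAs with amino acids, ran in the same direction. Of 30 genes 9 were positive and 1 negative at an unadjusted p under 0.05, and the median difference was 0.36, with medians of 0.29 in males and -0.06 in females. Without the 3 arrays 4 were positive and 0 negative, with a median of 0.28. The direction was not restricted to the mitochondrial enzymes. The 14 mitochondrial synthetases had a median of 0.27, with 3 positive and 1 negative, and the 16 others a median of 0.37, with 6 positive and 0 negative. GlyRS had 294.1, 186.5 and 338.0 in mutant males, all above 164.8, 149.2 and 146.5 in wild-type males, with 509.0 to 523.6 in mutant females and 527.6 to 559.6 in wild-type females (difference 0.81, adjusted p = 0.192). The extremes among brighter members were ValRS (0.87, adjusted p = 0.427) and TrpRS-m (-0.40, adjusted p = 0.307), a gene with 484.2 to 550.4 in mutant males and 632.6 to 687.6 in wild-type males.

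Translation initiation factors had a median difference of 0.20 over 40 genes, 12 positive and 3 negative at an unadjusted p under 0.05, and without the 3 arrays a median of 0.15 with 7 positive and 0 negative. All 5 subunits of eIF2B, which recharges initiation factor eIF2 with GTP, were positive, with a median of 0.76, and eIF2Bepsilon at 0.90 was the highest brighter member of the list (adjusted p = 0.206). The 16 eIF3 subunits had a median of 0.26. The lowest was eIF4H2 at -0.71 (adjusted p = 0.241), with 336.1 to 398.7 in mutant males and 547.7 to 629.9 in wild-type males and signals of 18.9 to 30.5 in mutant females and 20.9 to 32.1 in wild-type females. Cytosolic ribosomal proteins, 36 of which have a probe set of their own, had a median of 0.13 with 3 positive and 0 negative, between RpL3 at 0.39 and the ovary-rich RpS5b at -0.38 (adjusted p = 0.403 and 0.593). RpL37-1 is not counted in that list.

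Mitochondrial chaperones, proteases and import proteins had a median difference of 0.09 over 28 genes, near that of all genes, yet 8 were positive at an unadjusted p under 0.05 and 1 negative. The members that were positive included general components of the mitochondrial matrix and membranes, singled out after their values were seen. CG11267, the co-chaperonin, had 620.7, 650.1 and 853.2 in mutant males and 241.8, 278.1 and 261.5 in wild-type males, with 1091, 1277 and 1203 in mutant females and 821.7, 1007 and 1012 in wild-type females. Its partner chaperonin Hsp60A had 1437, 1307 and 1866 in mutant males and 950.6, 989.4 and 982.2 in wild-type males, but 2064 to 2156 in mutant females and 2214 to 2394 in wild-type females (difference 0.77, adjusted p = 0.103). Both rose in males (adjusted p = 8.9e-05 and 0.00747), and in females CG11267 had 0.33 and Hsp60A -0.14 (adjusted p = 0.284 and 0.69).

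Hsc70-5, the matrix Hsp70, rose by 0.95 in males (adjusted p = 0.00139) and had 0.09 in females, and the prohibitin Phb2 and the import channel Tom40 rose by 0.85 and 0.74 in males (adjusted p = 0.00548 and 0.00198) and had -0.02 and 0.04 in females. Their differences were 0.86, 0.87 and 0.71 (adjusted p = 0.107, 0.132 and 0.109). The negative member was Hsp60B, a testis form of the chaperonin, with 681.4 to 884.3 in mutant males and 983.1 to 1012 in wild-type males (difference -0.75, adjusted p = 0.342). Without the 3 arrays 8 members were positive and 0 negative.

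Structural genes of oxidative phosphorylation had medians closer to that of all genes. No member of complex I (24 genes, median 0.11), of complexes III and IV with cytochrome c (15 genes, median -0.06) or of ATP synthase (12 genes, median -0.09) had an unadjusted p under 0.05 in limma's test of the difference, and none was called. Their extremes were ND-B12 at -0.48 and ND-13B at 0.40 in complex I, COX5A at -0.20 and ox at 0.18, and ATPsynF at -0.21 and ATPsynE at 0.14 (brighter members, standard errors 0.17 to 0.34). The medians of the last 2 lists changed sign without the 3 arrays, to 0.10 and 0.09, and that of complex I without mutant female replicate 2, to -0.05. TCA cycle enzymes (17 genes, median 0.10, from Idh at -0.33 to ScsbetaG at 0.31) and glycolytic enzymes (10 genes, median 0.02, from Gapdh1 at -0.16 to Hex-C at 0.36) likewise had 0 members at an unadjusted p under 0.05. Muscle proteins had a median of -0.00 over 20 genes with Zasp66 (-0.39) the 1 such member and fln the highest at 0.29. The medians of these 3 lists also took either sign among the alternatives, as did that of amino acid and urate breakdown.

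Fatty acid beta-oxidation enzymes had a median difference of 0.26 over 19 genes, 4 positive and 0 negative at an unadjusted p under 0.05. The median change was 0.31 in males and 0.03 in females. When the 3 arrays were left out 2 were positive and 1 negative. The acyl-CoA dehydrogenase gene CG6638, which is also counted in the amino acid list, had 180.3, 205.2 and 225.4 in mutant males and 122.2, 95.5 and 112.7 in wild-type males, against 229.6 to 268.2 in mutant females and 192.3 to 227.7 in wild-type females (difference 0.61, adjusted p = 0.2). The brighter extremes were Arc42 at 0.94 and Acox3 at -0.33 (adjusted p = 0.415 and 0.42). In amino acid and urate breakdown (31 genes, median 0.02, 6 positive and 1 negative) the members diverged. Shmt, serine hydroxymethyltransferase, which shares folate cofactors with Nmdmc, had 1245, 1208 and 1298 in mutant males and 748.1, 817.0 and 837.0 in wild-type males, with 700.2 to 980.1 in mutant females and 847.4 to 975.5 in wild-type females (difference 0.75, adjusted p = 0.109). Oat, ornithine aminotransferase, was lowered in the other sex, with 348.0, 218.6 and 274.5 in mutant females and 580.1, 488.0 and 663.9 in wild-type females, where it fell by 1.02 on the log2 scale (adjusted p = 0.0133), and with overlapping male values (difference 1.17, adjusted p = 0.121). Pepck1 was the lowest at -0.99 (adjusted p = 0.446), although its signals were higher in mutants of both sexes. Its change was 0.91 in males (adjusted p = 0.159) and 1.9 in females (adjusted p = 0.0173).

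At the negative end, secreted gut serine proteases had a median difference of -0.34 over 32 genes, 7 (21.9%) negative and 1 positive at an unadjusted p under 0.05. The median change was 0.31 in males and 0.70 in females, so both sexes had higher median signals in mutants and the female shift was larger. At an adjusted p under 0.05, 14 of the 32 rose in females and 3 in males, where 2.04% and 4.45% of all genes did so. In neither sex did a member fall (0.675% of all genes in females and 2.39% in males). All mutant females lay above all wild-type females for 25 of the 32 genes, as for 9.29% of all genes, and all mutant males above all wild-type males for 3, as for 14.3% of all genes. Jon65Aiii had 5960, 7237 and 6381 in mutant females and 3378, 3319 and 3824 in wild-type females, with 4970, 5632 and 3824 in mutant males and 3693, 3619 and 4082 in wild-type males (difference -0.57, adjusted p = 0.26). Jon25Bi had 1659, 1609 and 1636 in mutant females and 308.3, 189.9 and 367.3 in wild-type females, but 1254, 1098 and 339.6 in mutant males and 361.0, 258.3 and 793.5 in wild-type males, which overlap (difference -1.64, adjusted p = 0.326). The lowest and the highest were Ser12 at -1.96 and Ser6 at 0.87 (adjusted p = 0.129 and 0.244), and Ser6 rose by 1.57 in males (adjusted p = 0.000797). Without the 3 arrays 9 genes were negative and 2 positive, and the median was -0.45, whereas without mutant male replicate 3 it was -0.16.

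Lipases (23 genes, median -0.31) had 3 negative and 1 positive members, from CG18301 at -1.47, with 177.9 to 306.2 in mutant males and 496.6 to 798.4 in wild-type males, to CG5966 at 1.14, which rose by 2.33 in males and by 1.20 in females (adjusted p = 0.000546 and 0.0436). Odorant-binding proteins (30 genes, median -0.27) had 6 negative and 0 positive members. Their median was -0.05 without mutant female replicate 1, -0.53 without mutant female replicate 2, and -0.07 without the 3 arrays, where 3 were negative. Obp56d, abundant in the taste organs and the head, fell in males, with 903.0, 711.2 and 554.2 in mutants and 2669, 1758 and 1238 in wild-type flies (male change -1.33, adjusted p = 0.0157), while in females mutants had 691.9 to 1182 and wild-type flies 832.0 to 1270. The brighter extremes were Obp56e at -1.61 and Obp99b at 0.45. Obp99b had 3000 to 5185 in mutant males and 166.2 to 429.4 in wild-type males, and 3487, 167.8 and 1596 in mutant females and 58.0 to 189.1 in wild-type females, and the standard error of its difference was 1.17. Cytochrome P450 genes (67, median -0.08) had 6 negative and 1 positive, between Cyp312a1 at -0.93 and Cyp4e3 at 1.26 (adjusted p = 0.181 and 0.527), and the sign of their median turned without the 3 arrays, to 0.06.

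**Figure D5:**
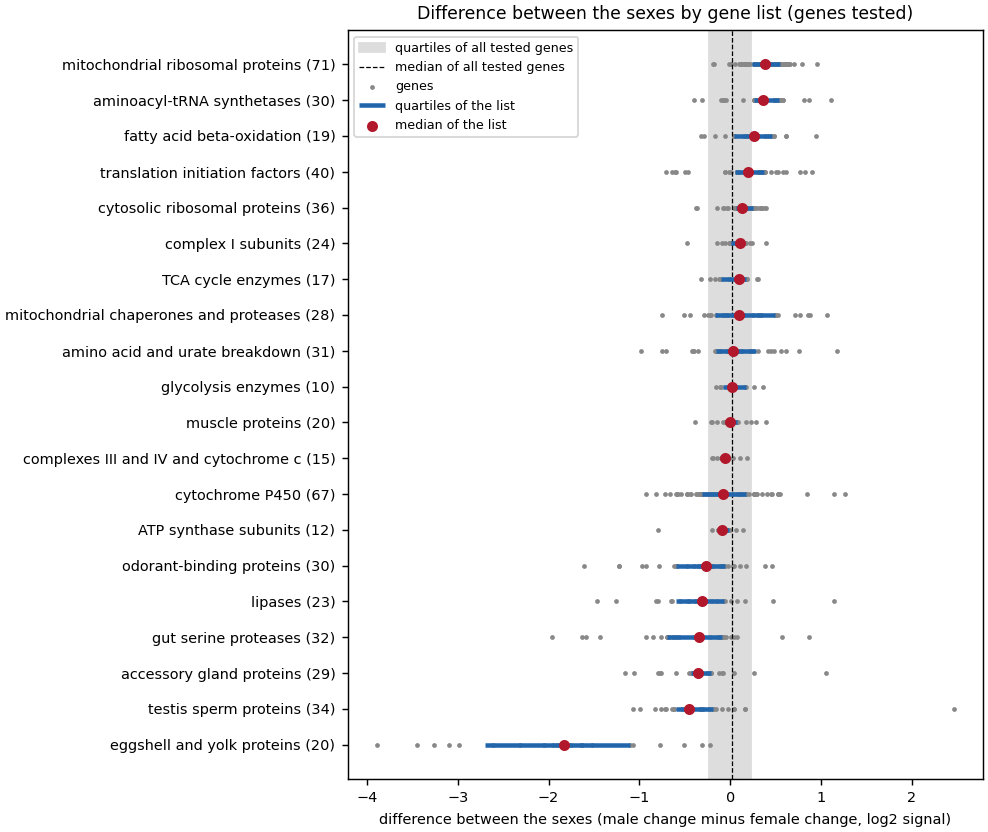
Difference between the sexes (horizontal axis, male change minus female change, log2 signal) of each gene in 20 lists, with the median and quartiles of each list and the grey quartile band of all tested genes. Mitochondrial ribosomal proteins (median 0.38) and aminoacyl-tRNA synthetases (0.36) lie to the right of the band, and eggshell and yolk proteins (-1.83) far to the left of it.

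Medians of reproductive tract transcripts shifted when the arrays named above were left out. All 20 eggshell and yolk genes were negative, 13 of them at an unadjusted p under 0.05, with a median of -1.83 with a median change of 0.16 in females and a male median below all other lists described. Yp2, a yolk protein made in the female fat body and ovary, had 21.1, 1.9 and 3.9 in mutant males and 734.6, 424.6 and 58.2 in wild-type males, against 8603, 9562 and 8883 in mutant females and 8835, 7890 and 10700 in wild-type females. The chorion gene Cp15 had 16.2, 25.6 and 13.4 in mutant males and 341.7, 569.5 and 75.1 in wild-type males. In both genes wild-type male replicates 1 and 2 were far above replicate 3, which lay nearer to the mutants, and females of the 2 genotypes overlapped. Without the 3 arrays the list had a median of -0.65 with 6 negative and 0 positive, and its least negative brighter member was Vm26Ac at -0.22.

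Sperm proteins (34 genes, median -0.46) had 1 negative member at an unadjusted p under 0.05 and 1 positive, the called Sdic3, and S-Lap7 was the lowest at -1.07 (adjusted p = 0.627). Its female signals were 114.9, 14.9 and 1.5 in mutants and 15.7, 14.5 and 2.2 in wild-type flies. Mutant female replicate 1 was the high array, and without it the median of the list was -0.01. The median change of the sperm proteins was -0.28 in males and 0.17 in females, against -0.02 and -0.04 over all genes. Without the 3 arrays it was -0.15 in males and -0.28 in females. Accessory gland proteins (29 genes, median -0.35, from Sfp26Ad at -1.16 to Acp98AB at 1.05) had 1 negative and 0 positive, and their median without the 3 arrays was 0.35. Their median change was -0.27 in males and 0.11 in females, and without the 3 arrays -0.15 and -0.70.

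Over the whole table, probe sets were also grouped by the contrast of all 6 male with all 6 female arrays, which does not depend on genotype. Of 1384 probe sets more than 2 log2 units higher in males, 241 (17.4%) were negative and 5 positive, and the median difference was -0.35, with medians of -0.28 in males and 0.07 in females. Of 581 that were as much higher in females, 62 were positive and 40 negative, with a median of 0.12. The 9582 others had a median of 0.05, with 706 positive and 424 negative, and held 9 of the 12 calls. Without the 3 arrays the male-biased class had a median of -0.17, with 105 negative and 17 positive.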

How the data were processed

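Whole-fly RNA was hybridized to Affymetrix Drosophila Genome 2.0 arrays. The deposited intensities are linear MAS5 signals that the authors had scaled array by array with GCOS, which removes any change in total RNA, and they were used as given. Of 18952 probe sets, 183 controls were left out and the 11547 brightest in either sex tested. The median of the arrays' 25th percentiles, 11.6, was added before log2, which shrinks differences of dim probe sets. limma 3.58.1 (R 4.3.3) fitted 4 group means with a variance trend, treating arrays as independent. The number of arrays limits precision. On simulated arrays 44 of 100 differences of log2 1 and 88 of 100 of log2 2 were recovered among 11547 probe sets, with 7 false calls. Simulated noise was independent and the differences lay in mutant males only. Transcripts of the other sex that move together and correlated residuals were not simulated. Probe sets with 1 annotated symbol (13646) were named, and those with several (402) or none (4721) were not, save 2 named from the study.

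Named genes are all calls, the 10 largest differences each way with an unadjusted p under 0.01 and a group mean of at least 100, each list's extremes at that brightness ("brighter members"), genes that the study lists as regulated in one sex or oppositely, with path, and tko. Of these, takeout, CG12200 and PGRP-SC1b were not analysed here. No tested probe set received any of these names, either as its 1 annotated symbol or, as Rala did, from the study. Further members were singled out after their values were seen. Members and lists were chosen with earlier results of these data known. Alternatives changed the added constant, the filter, the normalization, the variance trend, the replicate block and the probe sets per gene, or left out each array.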

Additional observations from a re-analysis of the deposited data

Results flagged for a closer look

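The 12 probe sets below were singled out because the change in mutants differed between males and females by the test of that difference itself (limma, adjusted p between 0.000153 and 0.0491). The differences on the log2 scale, male change minus female change, were 2.46 for Sdic3, 1.39 for RpL37-1, 1.55 for Rala, 1.67 for 1625050_s_at, 2.01 for BtbVII, 1.79 for bcn92, 1.48 for hep and 1.11 for 1623471_s_at. They were -2.20 for osk, -1.24 for CG14605, -1.37 for CG9519 and -1.79 for CG15578.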

How the results depend on the processing

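The 12 calls became 44 (18 positive, 26 negative) with 4 times the added constant, 6 without a filter on low signal, 22 with a random replicate block within genotype and 7 without the 3 arrays with most transcripts of the other sex, and between 4 (without mutant male replicate 3 or wild-type female replicate 1) and 31 (without wild-type male replicate 3) when each array was left out. With a constant divided by 4, a mean signal of at least 100, quantile normalization or no variance trend there were 8, 9, 12 and 17. With quantile normalization 11 of the 12 were positive and 1 negative. Residuals of same-numbered arrays correlated between -0.158 and 0.374. The highest, 0.336 and 0.374, were between mutant and wild-type females of replicates 2 and 3, and replicate 1 of these groups had -0.005. Whether the replicate numbers pair the arrays was thus not settled. With a fixed replicate block there were 11 calls, 8 of them shared. Over the 78 probe sets named, 1629 values under alternatives held 103 that lost and 20 that gained a call and 9 that turned sign. Those were RpS5b at 0.044, ATPsynF at 0.078 and Gapdh1 at 0.16 without the 3 arrays, another osk probe set at 0.023 with 4 times the constant, and, with each array left out, Acp98AB (-0.10 to 2.45), fln (-0.083 to 0.51), the second BtbVII probe set (-0.35 to 0.13) and Obp99b (-0.79 to 1.36).

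List medians with each array left out ran from -2.64 to -1.18 for eggshell and yolk proteins, -0.63 to -0.010 for sperm proteins and 0.045 to 0.17 for mitochondrial chaperones. Without the 3 arrays they were -0.65, -0.011 and 0.15, and 0.16 for beta-oxidation. The cause of these shifts was not tested. With 3 arrays a group, differences near log2 1 were often missed in simulated arrays, and signals near or below the added constant give no reliable fold.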

Other observations

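Without wild-type male replicates 1 and 2 and mutant female replicate 1, limma called 7 probe sets, all more positive in males, of which Sdic3 and RpL37-1 were also called from all 12 arrays. The other named genes were Sgp at 2.87 (adjusted p = 0.00625), the alpha-glucosidase gene tobi at 2.66 (adjusted p = 0.0193), CG34040 at 2.67 (adjusted p = 0.0315) and the maltase gene Mal-B1 at 3.75 (adjusted p = 0.0352). This selection of arrays was made after the values were seen and leaves a single wild-type male array, which is assumed to vary like the other groups.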
